A study of Mus musculus with 2 samples.

Results

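The Ly6c2/Chil3 monocytes were 1651 cells of CT-2A gliomas, 792 in the Glut5 KO library and 859 in the wildtype library, among 5635 macrophage-lineage cells passed by a gate and 23660 barcodes in all. They were chosen by transcript levels in these same cells. A barcode with at least 300 genes and under 10% mitochondrial UMIs (unique molecular identifiers, each a counted RNA molecule) entered the gate with at least 100 UMIs per 10000 of Lyz2, C1qa, C1qb, C1qc and Apoe. It left the gate with over 1 UMI of 6 microglial genes, any UMI of the 3 Cd3 genes, over 1 UMI of 6 dendritic cell genes or over 2 UMIs of 5 division genes. Each remaining cell was scored on 4 sets of genes, and a cell was kept here when its mean z over Ly6c2, Chil3, Plac8 and Vcan was the highest of the 4. The other cells of the gate fell to the Ptgs2/Vegfa set (902 cells in Glut5 KO and 546 in wildtype), the Fcrl5/Cd300e set (722 in Glut5 KO and 569 in wildtype) and the Pf4/Spp1 set (750 in Glut5 KO and 495 in wildtype).

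CT-2A is a mouse astrocytoma line that grows as a high-grade glioma after injection into the brain. Tumours of Glut5 KO and of wildtype mice were taken 14 days after intracranial implant, CD45+ cells were pulled out with magnetic beads, and 16000 cells were loaded per library on the 10x 5′ v2 chemistry, with 1 library per genotype. Glut5, encoded by Slc2a5, is a transporter for fructose, and the labels call the mice KO where the study's design text speaks of a knockdown; the labels name neither the allele nor the cells in which it acts. Both libraries held cells with Y-linked transcripts and cells with Xist, so each came from more than 1 animal, of a number not given.

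Ly6C-high monocytes leave the bone marrow through the chemokine receptor CCR2, enter inflamed tissue and tumours, and lose Ly6C as they become macrophages with complement C1q, lipid-handling and antigen-presentation genes. Type I interferon acts on them through a transcription factor complex that holds STAT2 and IRF9 and binds the interferon-stimulated response element, and interferon-gamma raises MHC class II through the coactivator CIITA. In mouse brain tumours they are held to be a source of macrophages beside the resident microglia.

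With 1 library per genotype no difference was tested. Ratios are given as the log2 of Glut5 KO over wildtype CPM, the UMIs of a gene summed over the monocytes and scaled to a common total, with 0.5 added to each count. Intervals are 95% and cover counting error only, and genotype, animal and library cannot be told apart. Over all barcodes the Glut5 KO library had 96851696 UMIs and the wildtype library 116105873, with medians of 6498 and 8662 per barcode. The monocytes had 3900425 UMIs in Glut5 KO and 5004830 in wildtype, with medians of 5251 and 5484 UMIs and of 1865 and 1943 genes per cell. The Glut5 KO monocytes had a shallow tail, with 214 cells under 2000 UMIs against 26 in wildtype. The libraries shared 188 barcode sequences, 3 of them between monocytes.

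Slc2a5 itself was not detected in the monocytes of either library, with 0 UMIs in Glut5 KO and 0 in wildtype. Floors of 3 counts were 0.769 CPM in Glut5 KO and 0.599 CPM in wildtype. The exact Poisson intervals reached up to 0.946 CPM and 0.737 CPM. The gene was in the microglia, taken as cells with at least 5 UMIs of the microglial genes, which had 0 UMIs in Glut5 KO and 370 UMIs (6.03 CPM) in wildtype. Over all barcodes there was 1 UMI in Glut5 KO and 384 in wildtype. The monocytes carried other sugar transporters. Slc2a1, the widespread glucose transporter Glut1, stood at 186 CPM in Glut5 KO and 175 CPM in wildtype, and Slc2a6 at 46.4 CPM and 44.6 CPM. Fructokinase (Khk) was at 22.05 CPM in Glut5 KO and 24.8 CPM in wildtype.

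The label was checked against monocyte markers that the rule did not use. Ccr2 was at 365 CPM in Glut5 KO monocytes and 441 CPM in wildtype monocytes, while no other group of the gate exceeded 170 CPM in Glut5 KO or 224 CPM in wildtype. S100a4, a calcium-binding protein of motile cells, was at 262 CPM in Glut5 KO and 348 CPM in wildtype, and elsewhere in the gate at no more than 43.2 CPM and 44.3 CPM. F13a1, Hp, Ms4a4c and Gda were also highest in the monocytes in both libraries, and so was Fn1. Ly6c1 was close to undetected, with 26 UMIs in Glut5 KO and 10 in wildtype. The orphan nuclear receptor Nr4a1, which Ly6C-low monocytes need, was high at 1046 CPM in Glut5 KO and 1417 CPM in wildtype, but it is also an immediate-early gene. Ace and Treml4 of Ly6C-low monocytes were at 10.0 CPM and 18.2 CPM in Glut5 KO and at 13.2 CPM and 30.2 CPM in wildtype, and Spn was at 5.13 CPM in Glut5 KO and 6.79 CPM in wildtype. The whole nonclassical list summed to 2164 CPM in Glut5 KO and 3020.3 CPM in wildtype monocytes, more than in any other group of the gate, where it reached at most 1889 CPM and 2593 CPM. Most of the sum in the monocytes was Nr4a1 together with Apoc2, which was at 434 CPM in Glut5 KO and 768 CPM in wildtype. The markers of Ly6C-high monocytes were thus present in both libraries, beside genes of the Ly6C-low list.

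The rule genes themselves describe how the members were cut. Ly6c2, a GPI-anchored surface protein, had a UMI in 94.6% of Glut5 KO members and 94.4% of wildtype members, and Plac8 in 96.7% and 99.5%. Chil3, the chitinase-like secreted protein Ym1, had one in 33.2% of Glut5 KO members and 50.1% of wildtype members, and Vcan, the matrix proteoglycan versican, in 9.22% and 10.7%. Only 41 members in Glut5 KO and 8 in wildtype showed 1 of the 4 genes alone. The score led the next one by under 0.25 in 250 Glut5 KO members (31.6%) and 196 wildtype members (22.8%), and 289 and 234 cells missed the cut by under 0.25. Members within 0.25 inside the cut had 3586 CPM of Ly6c2 in Glut5 KO and 2829 CPM in wildtype, and cells within 0.25 outside it had 2648 CPM and 1995 CPM. Cells thus lay close to the cut on both sides of it. The score that came next was the Ptgs2/Vegfa one in 386 Glut5 KO and 447 wildtype members.

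The promoter of Ly6c2 is shown as the sequence in front of the gene that names these cells. It is the RefSeq window from 250 bases before to 50 after the transcript start, mouse build GRCm38.p6, chr15:75111922-75112221, minus strand. Capitals mark GAGGAAGT, a core of the sites bound by PU.1, the factor of the myeloid lineage, read on both strands.
Ly6c2: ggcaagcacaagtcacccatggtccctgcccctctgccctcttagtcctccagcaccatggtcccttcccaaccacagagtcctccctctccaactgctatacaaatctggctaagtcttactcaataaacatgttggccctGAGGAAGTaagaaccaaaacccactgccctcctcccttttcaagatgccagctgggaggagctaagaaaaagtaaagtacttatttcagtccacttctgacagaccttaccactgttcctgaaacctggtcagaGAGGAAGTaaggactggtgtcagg
These letters occurred 2 times in the window, and at least once in 3.20% of 32851 RefSeq mouse windows of this length. They are in 1 of the 4 rule genes' windows, and a match is a description of letters, not of binding.

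**Figure D1:**
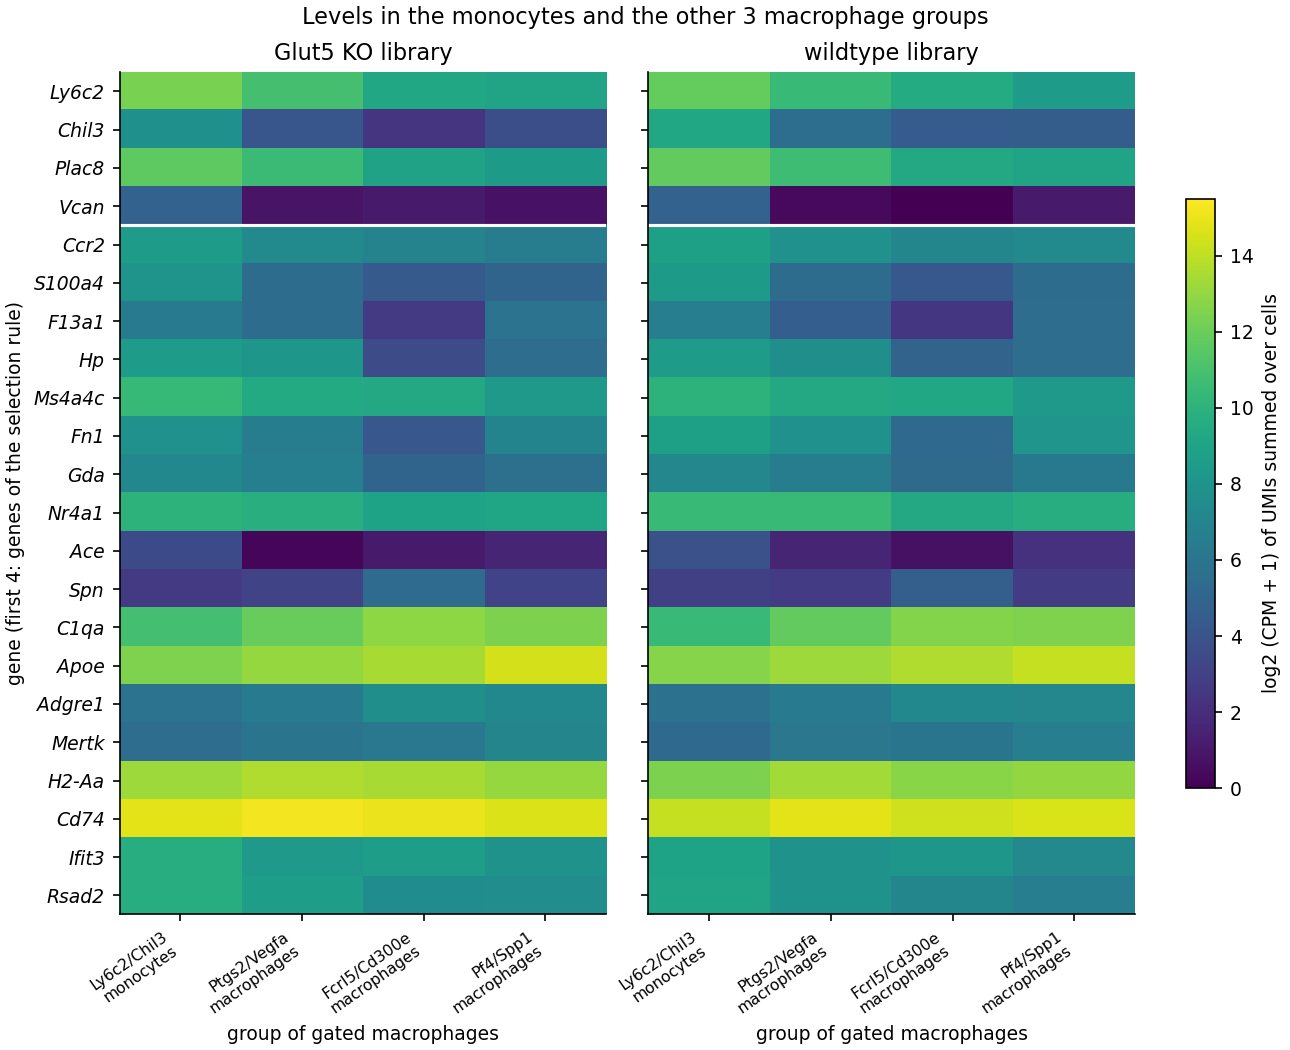
Heat map of log2 (CPM + 1) for 22 genes (rows) in the monocytes and the other 3 groups of gated macrophages (columns), Glut5 KO library on the left and wildtype library on the right, with the rule genes above the white line. Ccr2 and S100a4 are brightest in the monocytes in both panels, and C1qa, Adgre1 and Mertk are darkest there.

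The genes that set the monocytes farthest above the other 3 groups of the gate included S100a4, Ifitm6, Ahnak and Anxa2, and those farthest below included Myo1e and Rgs1. The groups were cut from these cells, so the contrasts are descriptions. In both libraries 45 of 6773 genes (0.664%) were at least 2-fold above each other group and 10 (0.148%) at least 2-fold below each. S100a6, S100a10 and Anxa2, partners at the inner membrane, were among the 12 highest outside the rule. Anxa2 stood at 507 CPM in Glut5 KO monocytes and 435 CPM in wildtype monocytes, against at most 167 CPM and 148 CPM elsewhere in the gate. Ifitm6, Cmpk2 and Slfn4, which interferon induces, were also there. Slfn4 stood at 459 CPM in Glut5 KO and 283 CPM in wildtype, with at most 180.1 CPM and 123 CPM elsewhere. Ahnak, Ccl9, Hopx, Emilin2 and S100a4 were among the 12 too.

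At the low end, the tetraspanin gene Cd81 was at 63.8 CPM in Glut5 KO monocytes and 66.3 CPM in wildtype monocytes, while the lowest other group had 129 CPM and 187 CPM. Rgs1, a brake on chemokine receptor signalling, was at 427 CPM in Glut5 KO and 342 CPM in wildtype, against at least 1161 CPM and 939 CPM. The monocyte attractants Ccl7 and Ccl12 were lower than in every other group, whereas Ccl2 was higher than in every other group, at 644 CPM in Glut5 KO and 448 CPM in wildtype, against at most 392 CPM and 377 CPM. Also lower than in every other group were the metallothionein Mt1, the integrin chain Itga9 and the motor protein Myo1e. The remaining 5 of the 12 lowest were Zmynd15, Id2, Bcl2a1b, Frmd4b and Snx24. C1qa, a gene of the gate, was at 1850.1 CPM in Glut5 KO and 1399.8 CPM in wildtype, against at least 3868 CPM and 3526 CPM elsewhere.

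Some of these genes were ordered along the score within the monocytes, and others were not. The members of each library were split into 3 tertiles by the score of the rule genes, with 264 cells each in Glut5 KO and 286 or 287 in wildtype. From the low to the high tertile, C1qa, C1qb and C1qc summed to 10241, 6479 and 2623 CPM in Glut5 KO and to 8258, 4640 and 2384 CPM in wildtype. The haptoglobin gene Hp ran the other way, at 147, 342 and 557 CPM in Glut5 KO and 160.3, 385 and 568 CPM in wildtype. Cd81 had no such order in wildtype, at 77.4, 80.01 and 44.1 CPM, nor Ccl7 in Glut5 KO, at 104, 51.0 and 59.9 CPM. As the rule used this score and the gate used C1q, these values describe how the members vary. Median depth was greater at each step in Glut5 KO, at 3736, 5101 and 5898 UMIs, and nearly even in wildtype, at 5406, 5405 and 5588 UMIs; its part in these orders was not tested.

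**Figure D2:**
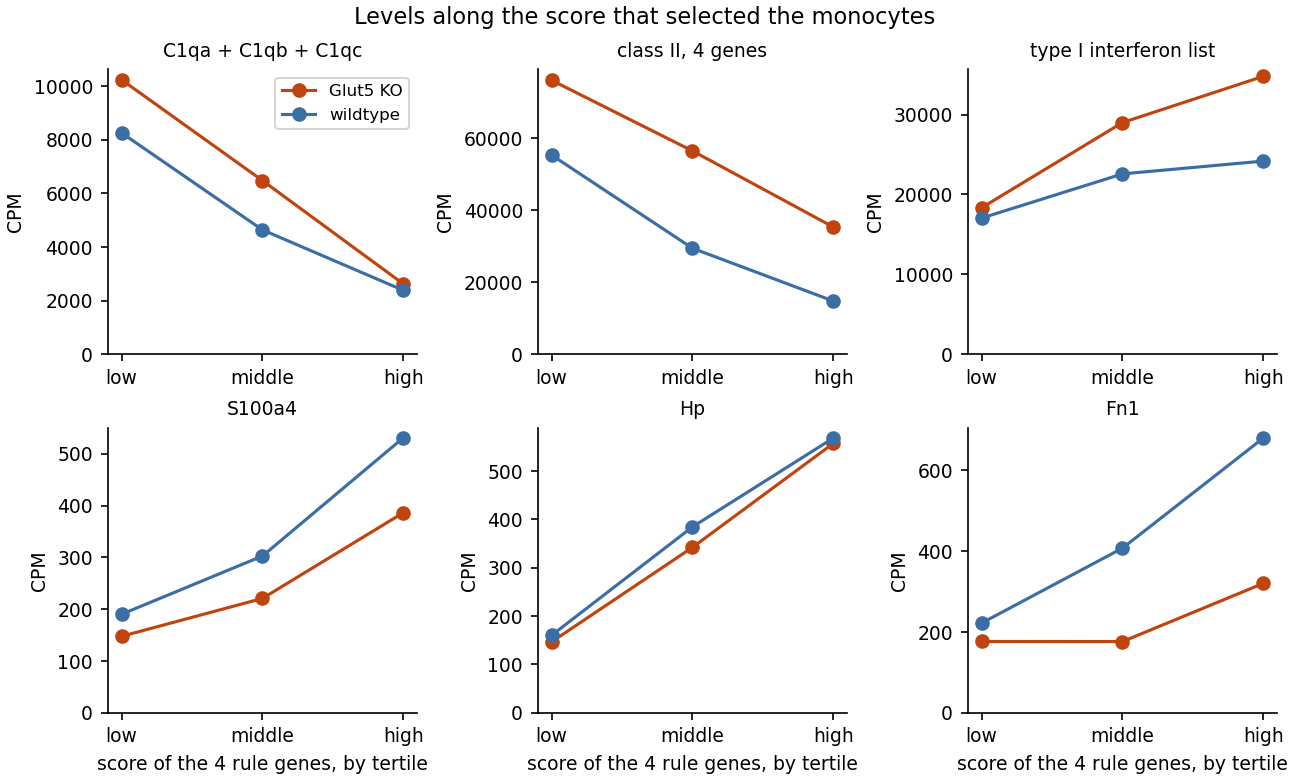
CPM (y axis, from 0) of 6 gene sums or genes in the low, middle and high tertile of the rule score (x axis), with Glut5 KO in red and wildtype in blue, 1 library each. C1q and class II are lower at each step of the score in both libraries, and S100a4, Hp and the type I interferon list higher. Tertiles were cut within each library, so their score limits differ.

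The share of monocytes among the cells of the gate was lower in the Glut5 KO library. They made up 25.02% [23.5 to 26.6] of 3166 gated cells in Glut5 KO and 34.8% [32.9 to 36.7] of 2469 in wildtype, with exact binomial intervals, a ratio of 0.719 [0.652 to 0.793]. Of all cells past the gene and mitochondrial filters they were 6.54% [6.11 to 6.99] of 12112 in Glut5 KO and 7.49% [7.01 to 7.98] of 11473 in wildtype, a ratio of 0.873 [0.792 to 0.963]. The direction over all filtered cells depended on scoring both libraries together. With z scores taken within each library it was 0.06 on the log2 scale instead of −0.20, while that over gated cells was −0.22 instead of −0.48. The limit of 1 microglial UMI is not scaled to depth: it removed 4037 Glut5 KO cells with a median of 10923 UMIs and 5816 wildtype cells with a median of 12388, and those kept at that step had 4439 and 5642.5. Dividing cells were outside the gate, and the rule genes scored highest in 9 of 150 in Glut5 KO and 5 of 110 in wildtype.

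MHC class II transcripts, which code for the molecules that show peptides to CD4 T cells, were higher in Glut5 KO monocytes, and fewer of these cells had little of them. H2-Aa, the class II alpha chain, was at 9555 CPM in Glut5 KO monocytes and 5619.6 CPM in wildtype monocytes, a log2 ratio of 0.77 (fold interval 1.67 to 1.73). Cd74, the invariant chain that guards the peptide groove, was at 29809 CPM in Glut5 KO and 18006 CPM in wildtype, a log2 ratio of 0.73. H2-Eb1, H2-Ab1 and the coactivator Ciita stood at 0.83, 0.69 and 0.83, and Ciita had 65.6 CPM in Glut5 KO and 37.0 CPM in wildtype. These 5 were the members of the class II list at least 1.5-fold higher in Glut5 KO, of 15 measured, and 0 were that much lower. Over all 6773 genes tested, 2.33% were as much higher and 1.95% as much lower. The list median was 0.18, against −0.03 for all genes. Of the rest, the peptide-exchange chain H2-DMb1 was highest at 0.53, and the thiol reductase Ifi30 and the costimulator Cd80 were lowest at −0.28 and −0.46.

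The other groups of the gate had Cd74 ratios above 0 too. Cd74 stood at 0.73 in the monocytes, 0.35 in the Ptgs2/Vegfa, 0.69 in the Fcrl5/Cd300e and 0.07 in the Pf4/Spp1 cells, and whether these ratios differ was not tested. In Glut5 KO the monocytes lay between the Pf4/Spp1 cells at 26819.6 CPM and the Fcrl5/Cd300e cells at 34434 CPM. In wildtype they had the lowest Cd74 of the 4 groups, with the others between 21412 and 30189 CPM.

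The promoter of H2-Aa is shown because class II genes share an upstream control element, the W/X/Y enhanceosome to which CIITA is recruited. The RefSeq window is chr17:34287774-34288073, GRCm38.p6, minus strand. Capitals mark the X2 box TGACGTCA and the Y box CTGATTGG, searched on both strands.
H2-Aa: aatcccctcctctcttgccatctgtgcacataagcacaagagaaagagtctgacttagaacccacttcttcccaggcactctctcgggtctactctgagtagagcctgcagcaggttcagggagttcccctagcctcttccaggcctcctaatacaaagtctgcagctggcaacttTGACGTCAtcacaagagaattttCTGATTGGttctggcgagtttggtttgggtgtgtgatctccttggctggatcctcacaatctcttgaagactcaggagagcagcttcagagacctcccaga
Of all 32851 windows 1.79% held the X2 letters and 4.10% the Y letters. Of 12 class II list genes with a window, H2-Aa, H2-Eb1, H2-Eb2 and H2-Oa held the Y letters. The X2 letters were in 1 of the 12, H2-Aa itself.

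Cell by cell, the 4 class II transcripts H2-Aa, H2-Ab1, H2-Eb1 and Cd74 summed to a median of 524 UMIs per 10000 in Glut5 KO monocytes and 233 per 10000 in wildtype monocytes. The lowest quartile ended at 226 per 10000 in Glut5 KO and 17.8 in wildtype, and the upper one began at 744 and 602. As a ratio, the libraries were thus farther apart among cells with little class II than among those with much. A peak of cells near 0 stood out in both, and a limit of 100 per 10000 was set after seeing it. Below it were 124 of 792 Glut5 KO monocytes, 15.7% [13.2 to 18.4], and 326 of 859 wildtype monocytes, 38.0% [34.7 to 41.3]. T cells, which should lack these genes in mice, had medians of 8.64 per 10000 in Glut5 KO and 6.74 in wildtype, while their summed level was 18872 CPM in Glut5 KO and 22019 CPM in wildtype. The T cell barcodes thus include some with much class II RNA. Thinned to 2000 UMIs a cell, which left out 214 and 26 shallower cells, the shares were 17.1% and 38.2%. Microglia thinned alike were below the limit in 39.6% in Glut5 KO and 62.7% in wildtype, so that the same direction was present outside the monocytes.

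**Figure D3:**
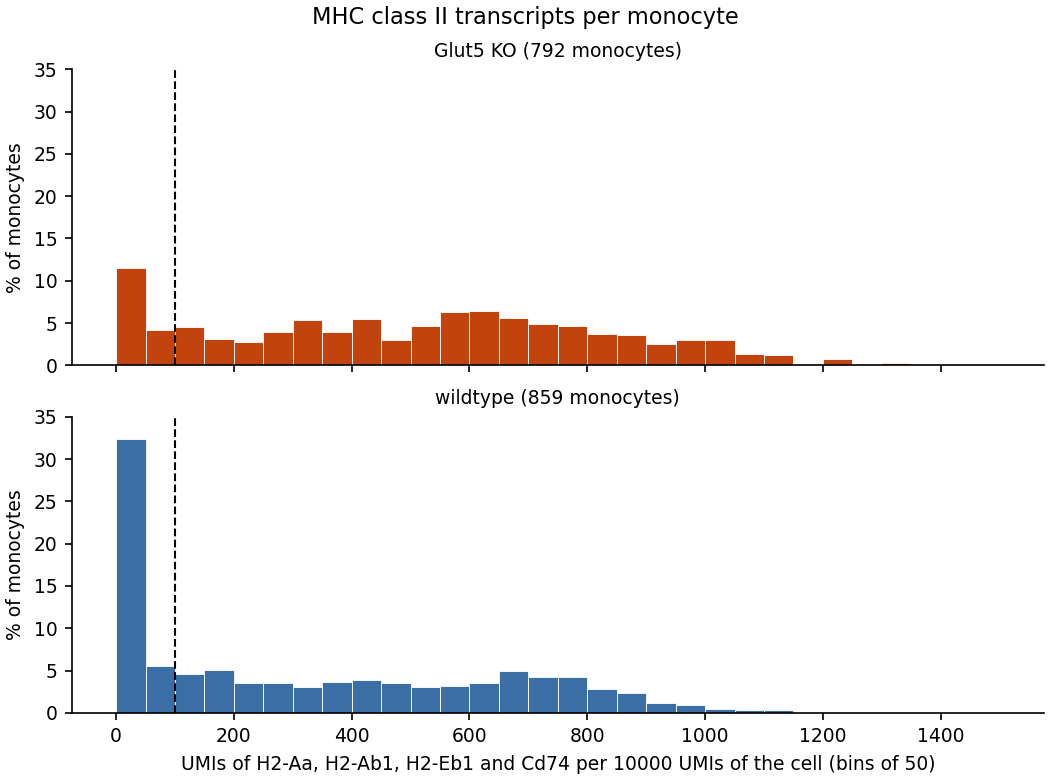
Share of monocytes (y axis, %) by the UMIs of 4 class II genes per 10000 UMIs of the cell (x axis, bins of 50), Glut5 KO above wildtype, with the limit of 100 dashed. The bin nearest 0 holds 11.5% of Glut5 KO and 32.4% of wildtype monocytes.

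Class II-low and class II-high monocytes differed in other genes in both libraries. Chil3 and C1qa, which the rule and the gate used, are given as a description. In class II-low monocytes Chil3 was at 535 CPM in Glut5 KO and 1116 CPM in wildtype, against 164 CPM and 302 CPM in class II-high monocytes. S100a4 was at 688 CPM in Glut5 KO and 628 CPM in wildtype class II-low cells, and at 186 CPM and 183 CPM in class II-high cells. F13a1, a coagulation factor subunit of monocytes, was at 207 CPM in Glut5 KO and 202 CPM in wildtype class II-low cells, and at 57.1 CPM and 35.9 CPM in class II-high cells. C1qa went the other way, at 229 CPM in Glut5 KO and 408 CPM in wildtype class II-low cells, and at 2138 CPM and 1985 CPM in class II-high cells. Between libraries S100a4 stood at 0.13 in class II-low and 0.02 in class II-high cells, while over all monocytes it stood at −0.41. Within the classes Cd74 was still higher in Glut5 KO, at 0.48 in class II-low and 0.33 in class II-high cells, below its 0.73 over all monocytes. The class was cut from Cd74 and H2-Aa themselves, so their ratios within it are descriptions.

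Genes of the type I interferon response were higher together in Glut5 KO monocytes. All 41 measured members of the list had a ratio above 0, with a range of 0.14 to 0.96. Their median was 0.43, where that of all genes was −0.03. Of the 41, 12 were at least 1.5-fold higher in Glut5 KO and 0 lower. Of all genes 2.33% were as much higher and 1.95% as much lower. Ifit3, an antiviral tetratricopeptide-repeat protein, was at 815 CPM in Glut5 KO and 504 CPM in wildtype, a log2 ratio of 0.69. Rsad2, the antiviral enzyme viperin, was at 817 CPM in Glut5 KO and 525 CPM in wildtype, a ratio of 0.64. Ifit3b, Ifi44 and Cmpk2 stood at 0.96, 0.88 and 0.73, Irf7, the factor that amplifies interferon output, at 0.66, and Isg15 at 0.37. Lgals3bp and Slfn1 had the smallest ratios, 0.14 and 0.17. Ifit3 and Ifit3b are near copies between which reads may be split. Thinned, Ifit3 had a UMI in 52.4% of Glut5 KO and 40.6% of wildtype monocytes, against 25.4% and 17.1% of microglia. With the gate set at 200 UMIs per 10000 the list median was 0.20. Medians in the other groups of the gate were 0.25 in the Ptgs2/Vegfa, 0.25 in the Fcrl5/Cd300e and 0.29 in the Pf4/Spp1 cells. There 2, 3 and 6 of the 41, in that order, were at least 1.5-fold higher, where 3.66%, 2.28% and 4.81% of all genes were, and 0 were lower, where 2.54%, 2.89% and 1.85% were. The level of this list was greatest in the monocytes, whose members summed to 27982 CPM in Glut5 KO and 21376 CPM in wildtype, against at most 17159 CPM and 15115 CPM elsewhere in the gate.

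The promoters of Ifit3 and Rsad2 are shown for the interferon-stimulated response element, searched on both strands as a pair of GAAA runs with any 2 bases between them, and marked in capitals. Ifit3 is at chr19:34583279-34583578, plus strand, and Rsad2 at chr12:26456403-26456702, minus strand, both RefSeq, GRCm38.p6.
Ifit3: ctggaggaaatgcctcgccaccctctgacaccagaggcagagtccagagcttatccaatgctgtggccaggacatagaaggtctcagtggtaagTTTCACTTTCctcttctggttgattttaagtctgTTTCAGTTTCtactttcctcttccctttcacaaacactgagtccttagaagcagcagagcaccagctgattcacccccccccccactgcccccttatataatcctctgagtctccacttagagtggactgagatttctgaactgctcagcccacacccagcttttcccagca
Rsad2: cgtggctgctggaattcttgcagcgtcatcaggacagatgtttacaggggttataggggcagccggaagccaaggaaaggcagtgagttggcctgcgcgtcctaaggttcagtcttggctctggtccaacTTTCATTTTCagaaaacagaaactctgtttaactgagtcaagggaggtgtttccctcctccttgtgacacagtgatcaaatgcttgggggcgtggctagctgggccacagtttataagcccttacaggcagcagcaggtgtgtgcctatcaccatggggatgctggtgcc
The letters occurred 2 times in the Ifit3 window and once in the Rsad2 window, each time on the opposite strand. Of 35 type I list genes with a window 18 held them, beside 3.99% of 27025 genes and 3.44% of all windows.

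The type I ratios were above 0 in female cells and spread about 0 in male cells. Cells with Xist and no Y-linked UMI were called female (184 Glut5 KO and 160 wildtype monocytes), those with Y-linked UMIs alone male (112 and 216), and 491 and 468 had neither. The sexes are different animals, so sex and animal cannot be told apart. In female cells the list median was 0.64, with 23 of 40 members at least 1.5-fold higher and 0 lower, where 6.98% of all genes were as much higher and 5.26% as much lower. In male cells it was −0.07, with 0 of 40 higher and 0 lower, where 3.86% and 3.68% of all genes were. Ifit3 was at 958 CPM in Glut5 KO and 416 CPM in wildtype female cells, and at 363 CPM in Glut5 KO and 460.5 CPM in wildtype male cells. Rsad2 was at 1037 CPM in Glut5 KO and 467 CPM in wildtype female cells, and at 379 CPM in Glut5 KO and 436 CPM in wildtype male cells. The wildtype cells of both sexes were close in these 2 genes, and the Glut5 KO female cells stood above the other 3 sets. Whether the sexes differ was not tested.

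The main class II genes were higher in Glut5 KO than in wildtype cells of both sexes. H2-Aa was at 8426 CPM in Glut5 KO and 3303 CPM in wildtype female cells, a ratio of 1.35, and at 10988 CPM and 7176 CPM in male cells, a ratio of 0.61. Class II-low cells were 23.9% of Glut5 KO and 56.9% of wildtype female monocytes, and 9.82% and 25.5% of male ones. So the wildtype sexes were far apart in class II, the females being lower, unlike in Ifit3 and Rsad2. As the female share of sexed monocytes differs between libraries, comparisons over all monocytes mix these values.

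**Figure D4:**
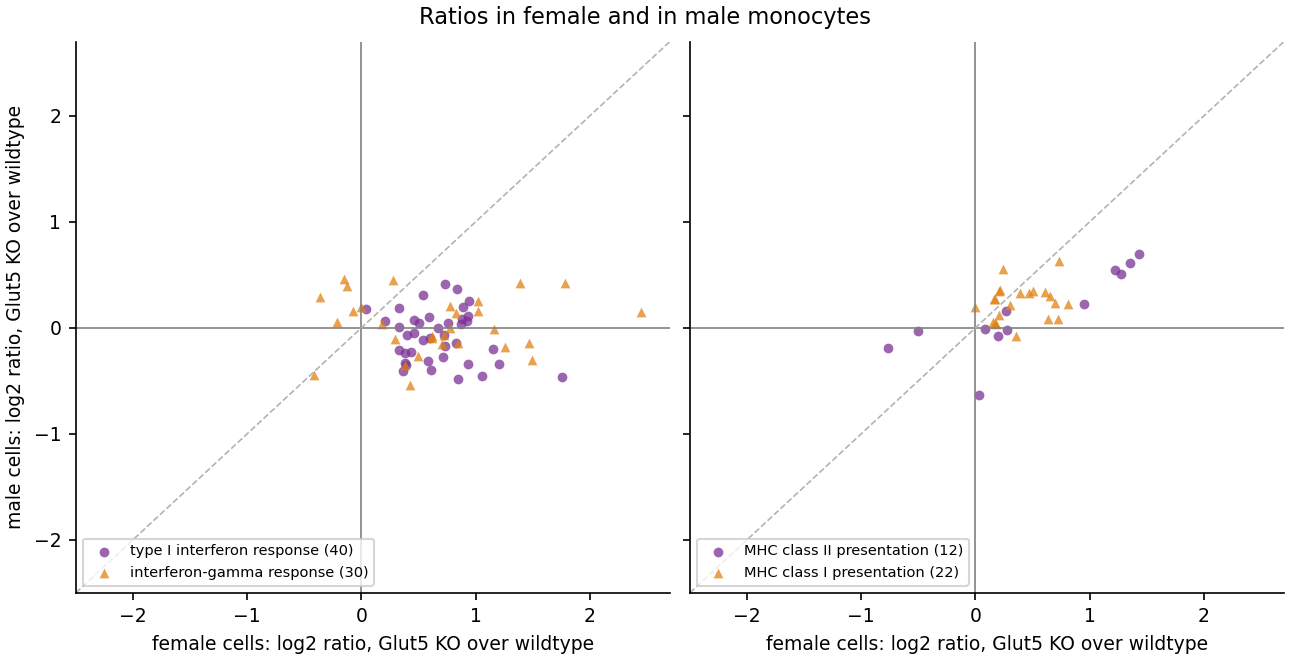
Log2 ratio of Glut5 KO over wildtype in female monocytes (x axis) against male monocytes (y axis) for members of 4 gene lists with at least 100 UMIs in each sex over both libraries, 1 point per gene, with the line of equal ratios dashed. Type I interferon genes lie to the right of 0 and on either side of 0 in male cells (list medians 0.64 and −0.07), while H2-Aa, H2-Ab1, H2-Eb1 and Cd74 are above 0 in both.

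The type I list was also higher inside both class II classes, in which the sexes were not separated. Cells called female and male were 44 and 11 of the class II-low monocytes in Glut5 KO, and 91 and 55 in wildtype. Of the class II-high ones they were 140 and 101 in Glut5 KO, and 69 and 161 in wildtype. The classes thus mix the sexes in unlike parts. In class II-low monocytes the list median was 0.85, with 31 of 40 members at least 1.5-fold higher and 0 lower, where 9.66% of all genes were as much higher and 9.33% as much lower. Ifit3 there was at 1463 CPM in Glut5 KO and 635 CPM in wildtype. In class II-high monocytes the median was 0.46, with 11 of 41 higher and 0 lower, where 2.54% of all genes were as much higher and 1.65% as much lower. Along the rule score the list's summed level went from 18335 CPM in the low tertile to 34785 CPM in the high one in Glut5 KO, and from 17041 CPM to 24176 CPM in wildtype. The tertiles were cut within each library, and the high one began at a score of 0.674 in Glut5 KO and 0.959 in wildtype. The libraries are thus not compared at the same score, and these sums describe the members as cut.

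Genes induced by interferon-gamma and those of MHC class I had smaller medians over all monocytes than the type I list. Of 35 interferon-gamma genes measured, 3 were at least 1.5-fold higher and 0 lower, where 2.33% of all genes were as much higher and 1.95% as much lower, and their median was 0.23. Upp1, which splits uridine, was at 46.9 CPM in Glut5 KO and 15.4 CPM in wildtype, a ratio of 1.60, and the third beside it and Ciita was the GTPase gene Tgtp2 at 0.64. Upp1 was as high in the other groups of the gate, at 1.42 to 1.82. Ifngr1, a chain of the interferon-gamma receptor, was lowest at −0.38 and the T cell attractant Cxcl9 next at −0.23. The list median was 0.66 in female cells, with 17 of 30 members at least 1.5-fold higher where 6.98% of all genes were, and 0.05 in male cells, with 2 of 32 where 3.86% were. In class II-low monocytes it was 0.62, with 17 of 30 higher where 9.66% of all genes were. In class II-high monocytes it was 0.05, with 1 of 35 where 2.54% were. Here too the sexes were not separated within the classes. All 23 class I members were above 0, with a median of 0.26 where that of all genes was −0.03. Of them 0 were past 1.5-fold, where 2.33% of all genes were as much higher and 1.95% as much lower. Nlrc5, the class I coactivator, was highest at 0.52. The other groups had class I medians of 0.22 to 0.25.

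**Figure D5:**
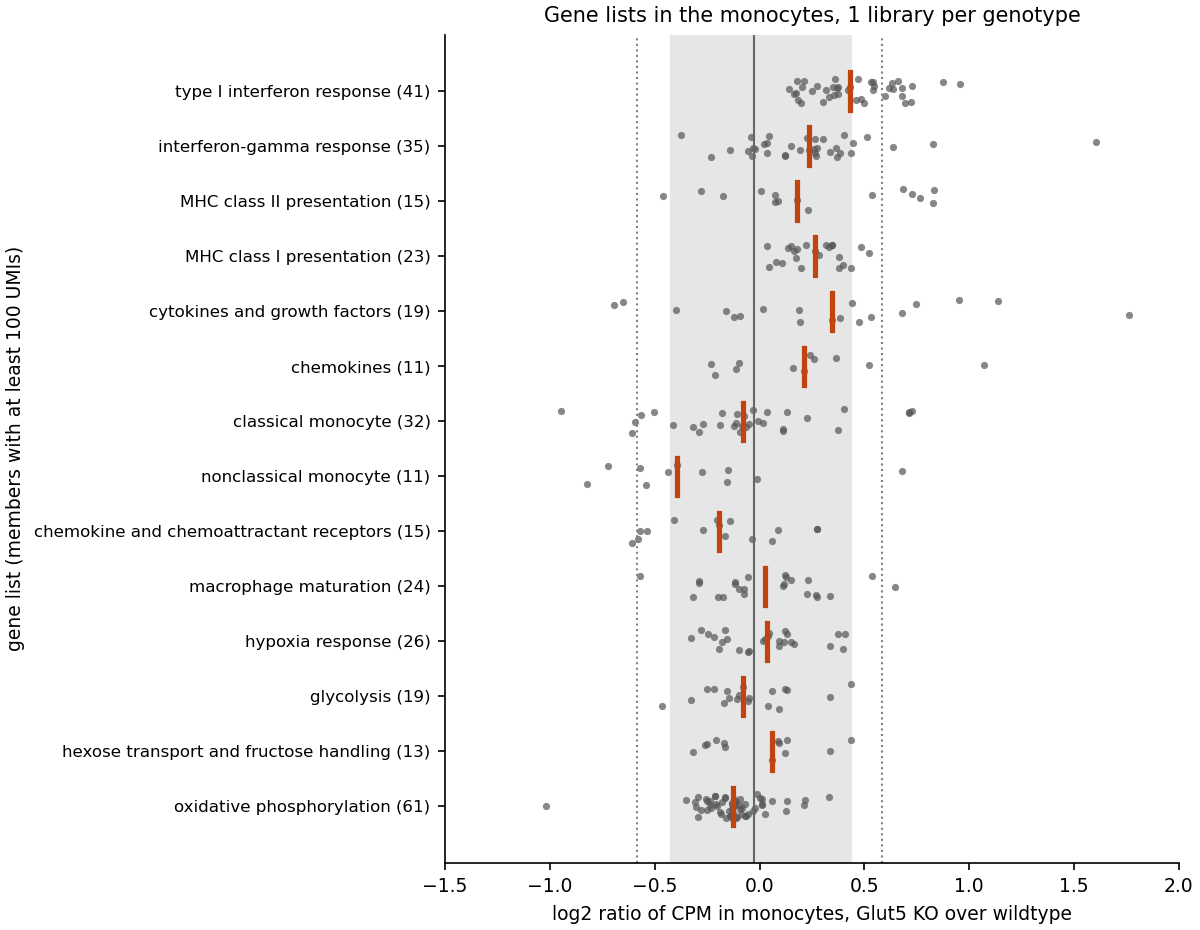
Log2 ratio of Glut5 KO over wildtype in the monocytes (x axis) for each measured member (points) of 14 gene lists (rows, with the number of members), with list medians in red, the median of all genes as a grey line, their 5th to 95th percentile shaded and 1.5-fold dotted. The type I list lies wholly above 0, and 10 of 11 nonclassical monocyte genes lie below it.

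Among secreted signals, Tnf, Il15 and Ccl12 had ratios among the 12 highest of 2720 eligible genes. Tnf, the inflammatory cytokine, was at 52.3 CPM in Glut5 KO and 15.4 CPM in wildtype, a ratio of 1.76 (fold interval 2.60 to 4.48). It was found in 100 Glut5 KO and 57 wildtype monocytes, and in 5.36% and 3.12% after thinning, which is below the 13.2% and 10.8% of microglia. Its ratio was 1.72 in female cells, on 32 UMIs in Glut5 KO and 8 in wildtype, and 1.11 in male cells, on 26 and 25. Il15, which sustains NK and memory T cells, was at 72.0 CPM in Glut5 KO and 32.8 CPM in wildtype, with ratios of 2.40 in female and 0.74 in male cells. Ccl12, a ligand of CCR2, was at 307 CPM in Glut5 KO and 146 CPM in wildtype, with 1.82 in female and 1.09 in male cells. All 3 were thus above wildtype in both sexes. Of 19 cytokines and growth factors measured, 5 were at least 1.5-fold higher and 2 lower, where 2.33% of all genes were as much higher and 1.95% as much lower, and the median was 0.35. Tnfsf10, Gdf3 and Tnfsf9 stood at 0.95, 0.75 and 0.68, and Il1a and Pdgfa at −0.70 and −0.65. Il1b, the most abundant of them, was at 4093 CPM in Glut5 KO and 4577 CPM in wildtype.

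Of 11 chemokines measured, Ccl12 was the 1 at least 1.5-fold higher and 0 were lower, where 2.33% of all genes were as much higher and 1.95% as much lower, and the median was 0.21. Ccl2, another CCR2 ligand, stood at 0.52, Cxcl10 at 0.36, Ccl5 at 0.26, Ccl7 at 0.24, Ccl3 at 0.21 and Ccl4 at 0.16. Ccl6, Ccl9, Cxcl16 and Cxcl9 stood between −0.10 and −0.23. Ccl2 was at 796 CPM in Glut5 KO and 202 CPM in wildtype female cells, and at 496 CPM and 488 CPM in male cells. Of 15 chemokine and chemoattractant receptors measured, whose median was −0.19, 0 were at least 1.5-fold higher and 1 lower, against those same 2.33% and 1.95%, the leukotriene B4 receptor Ltb4r1 at −0.61. Ccr2 was lower at −0.27 (fold interval 0.775 to 0.886), the fractalkine receptor Cx3cr1 at −0.57 and the complement C5a receptor C5ar1 at −0.54. Of the CCR2 ligands, Ccl7 stood at 1.63 in female and −0.68 in male cells.

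Classical monocyte genes went both ways. Of 32 measured, 3 were at least 1.5-fold higher and 3 lower, where 2.33% of all genes were as much higher and 1.95% as much lower, and the median was −0.08. Ly6a at 0.71 and Cd177 at 0.71 were among the higher ones, and Fn1 at −0.95, Ifitm1 at −0.61 and Clec4e at −0.60 the lower. Fn1, the matrix glycoprotein fibronectin, was at 231 CPM in Glut5 KO and 446 CPM in wildtype, with ratios of −1.40 in female and −0.32 in male cells, and lower in every group of the gate, at −1.07 to −1.34. Thinned, it had a UMI in 24.9% of Glut5 KO and 34.1% of wildtype monocytes, against 6.37% and 7.71% of microglia. The rule genes, given as a description, showed the same split: Ly6c2 at 5267 CPM in Glut5 KO and 3662 CPM in wildtype, Chil3 at 220.2 CPM and 604 CPM, Plac8 at 3242 CPM and 3444 CPM, and Vcan at 28.2 CPM in both. Chil3 was lower in Glut5 KO in both sexes, at −2.02 and −0.89, and inside both class II classes, at −1.06 and −0.88.

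Of 11 nonclassical monocyte genes measured, 1 was at least 1.5-fold higher and 2 lower, where 2.33% of all genes were as much higher and 1.95% as much lower. A ratio above 0 was found in 1 of the 11, and the median was −0.39, where that of all genes was −0.03. Apoc2, an apolipoprotein that activates lipoprotein lipase, was at 434 CPM in Glut5 KO and 768 CPM in wildtype, a ratio of −0.82, and Treml4 stood at −0.72. Nr4a1 was at −0.44 in the monocytes, with −0.71, −0.35 and −0.53 in the other groups, and in the dissociation list, which it shares, the median was 0.11 over 24 members. Pglyrp1 at 0.68, on 65 UMIs in Glut5 KO and 52 in wildtype, was the exception. Medians in the other groups were −0.38, −0.25 and −0.12, in the order Ptgs2/Vegfa, Fcrl5/Cd300e and Pf4/Spp1.

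Metabolic lists had medians between −0.13 and 0.06 over all monocytes, where that of all genes was −0.03. Some of these medians had opposite signs in the sexes. Hexose transport and fructose handling had a median of 0.06 over 13 members and glycolysis −0.08 over 19. Hypoxia had 0.03 over 26 and oxidative phosphorylation −0.13 over 61. Ratios above 0 were found in 7, 7, 15 and 11 members, in that order. Oxidative phosphorylation members thus lay mostly below 0. Their medians in the other groups were −0.02, −0.19 and −0.18, where those of all genes were −0.02, −0.04 and 0.02. Across the 4 lists 1 member was past 1.5-fold, Ndufs5 at −1.02, where 2.33% of all genes were as much higher and 1.95% lower. In female cells the hypoxia median was −0.31, with 1 of 17 members at least 1.5-fold higher and 5 lower, where 6.98% and 5.26% of all genes were. In male cells it was 0.23, with 3 of 17 higher and 0 lower, where 3.86% and 3.68% of all genes were. Glycolysis stood at −0.31 in female and 0.19 in male cells, the NF-kB list at −0.32 and 0.23, and the redox and iron list at −0.37 and 0.02. Whether the sexes differ in these lists was not tested. Hexokinases Hk1 and Hk3 stood highest in glycolysis, at 0.43 and 0.33, and Ldhb lowest at −0.47. The arginase gene Arg1, of immunosuppressive macrophages, was at 28.2 CPM in Glut5 KO and 43.2 CPM in wildtype, a ratio of −0.61. In class II-low monocytes it was at 1.70 CPM in Glut5 KO, under a floor of 3 counts in those 124 cells, and 63.5 CPM in wildtype. In class II-high ones it was at 32.9 CPM and 31.1 CPM, so that it was not lower there. Nos2 had 29 UMIs in Glut5 KO and 21 in wildtype. Cell cycle, redox, lipid, Fc receptor, adhesion, inflammasome, NF-kB, immunosuppression, maturation and transcription factor lists had medians between −0.14 and 0.11 over all monocytes. Of these lists, maturation had 1 of 24 genes past 1.5-fold, Cd72 at 0.65, and adhesion had 1 of 19, at 0.73. Of 24 pattern receptor genes Tlr9 at 0.74 and Clec4e were past it, and of 23 lipid genes Nceh1 at 0.69 and Acly at −0.61. In the immunosuppression list Arg1 was the 1 of 20. Among 29 transcription factors Maf at 0.77 and Irf7 at 0.66 were the 2 at least 1.5-fold higher, and Klf2 was lowest at −0.57. Beside each of these counts, 2.33% of all genes were at least 1.5-fold higher and 1.95% at least 1.5-fold lower.

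The largest ratios among the eligible genes lay in 2 stretches of the genome, on chromosomes 15 and 4. Dcstamp, a fusion protein of osteoclasts, was at 54.9 CPM in Glut5 KO and 1.80 CPM in wildtype, a ratio of 4.86, and Dpys, a pyrimidine-breakdown enzyme whose gene lies next to it, at 63.8 CPM and 3.40 CPM, a ratio of 4.19. Dcstamp is at chr15:39745930-39760938 and Dpys at chr15:39768487-39857470 in GRCm38. Both were also higher in the other groups of the gate, at 2.97 to 3.55. Of the 12 lowest genes, 4 were on chromosome 4 within 30 Mb of Slc2a5, where 0 of the 12 highest and 94 of the 2720 eligible genes (3.46%) were. Cep85 was at 5.38 CPM in Glut5 KO and 52.7 CPM in wildtype, a ratio of −3.26, and its neighbour Sh3bgrl3 at 697 CPM and 1562 CPM, a ratio of −1.16. Ndufs5 stood at −1.02. These 3 were lower in every other group too, and genotype and nearness to the targeted gene cannot be told apart for them. Gadd45g, Sdc4, Zbtb20, Gramd3 and Eno1b, the last a near copy of Eno1 whose reads may be split, made up the 12 highest, at 0.84 to 1.03. Hic1, Anxa3, Unc119, Hivep3, Polr2k and Mrpl28 were also among the 12 lowest, at −0.72 to −0.89. Of these, Hivep3 is on chromosome 4 too, 30.4 Mb from Slc2a5 and so just past the 30 Mb limit. Polr2k is at chr15:36174010-36177010, on the chromosome of Dcstamp and Dpys.

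RNA of other cells was looked for in the same monocytes. The 12 neutrophil markers summed to 986 CPM in Glut5 KO and 131 CPM in wildtype, and S100a9 led at 383 CPM in Glut5 KO against 8.59 CPM in wildtype. S100a8 and S100a9 had 2427 UMIs in Glut5 KO, 2385 of them in 7 cells, and 127 in wildtype, 118 of them in 3 cells. All 320 Camp and 384 Ngp UMIs, granule genes of immature neutrophils, were in those 7 Glut5 KO cells, and wildtype had 0 of either. Without these cells the type I list median was 0.44 and the ratios of H2-Aa and Fn1 0.77 and −0.94. T cell markers summed to 36.1 CPM in Glut5 KO and 18.8 CPM in wildtype, with the Cd3 genes at 0 by the rule. NK markers, nearly all Ccl5, summed to 2435 CPM in Glut5 KO and 2054 CPM in wildtype, and plasmacytoid markers, mostly Bst2, to 2022 CPM in Glut5 KO and 1753 CPM in wildtype. B cell and plasma cell markers summed to 134 CPM and 382 CPM in Glut5 KO and to 147 CPM and 279 CPM in wildtype. Conventional and migratory dendritic markers summed to 114 CPM and 216 CPM in Glut5 KO and to 90.1 CPM and 230.4 CPM in wildtype. Border macrophage markers summed to 458 CPM in Glut5 KO and 390.2 CPM in wildtype, with Lyve1 and Cd163 at 0, and microglial markers, led by Cst3, to 3569 CPM in Glut5 KO and 3399.5 CPM in wildtype. Mast cell and tumour or stroma markers summed to 60.8 CPM and 81.3 CPM in Glut5 KO and to 29.2 CPM and 63.1 CPM in wildtype. The part of these other cells in the ratios was not tested. Of 24 measured immediate-early genes that dissociation can induce, Hspa1b alone, a near copy of Hspa1a, was past 1.5-fold, at 0.70. Of all genes 2.33% were as much higher and 1.95% as much lower.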

How the data were processed

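The authors deposited, for each library, a matrix of raw UMI counts per gene and cell barcode, written by Cell Ranger 7.0.1 per the file headers, whereas the submitters' processing notes name Cell Ranger 3.1.0 and mm10. Raw counts were used as deposited, and barcodes had already been filtered. Each library held 32285 genes, and its reads came from the RNA of CD45+ tumour cells. Gating, z scores over the gated cells of both libraries (log1p of counts per 10000), sums, CPM and exact intervals were computed in Python 3.11.15 with numpy 2.4.6, scipy 1.17.1, pandas 2.3.3 and scanpy 1.11.5, and figures drawn with matplotlib 3.10.9. The ratio code was tested on simulated data. Genes needed 100 UMIs over both libraries to enter a ratio, and "called" means 1.5-fold or more. With 1 library per genotype no p-value was computed, and intervals and floors of 3 counts cover counting error only.

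Members and gene lists were chosen with earlier results of these data known. Between libraries, the 12 highest and 12 lowest ratios were named among 2720 genes with at least 100 UMIs and at least 50 CPM in 1 library. Left out were rule genes, genes of the other-cell lists, predicted and antigen receptor genes, and those of mitochondria, ribosomes, haemoglobin and the sex chromosomes. The same number was named against the other 3 groups, by the lesser of the libraries, and of each list the 2 highest and 2 lowest members, or any monocyte, chemokine or receptor gene. Some genes within these rules are not reported here. Other genes, such as Isg15, Ccl2 by sex and those of the class II classes, were chosen after their values were seen. Doublets were not removed, and leaving out the top 8% of Scrublet scores was an alternative, beside other z scores, score leads, depths, gates, sexes, scalings and count minimums.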

Additional observations from a re-analysis of the deposited data

Results flagged for a closer look

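Listed and named genes with at least 100 UMIs in each sex were screened for ratios that went opposite ways in the sexes. For 8 genes they did so by at least 1.5-fold, with each counting interval excluding no change. The screen was not run over all genes, so the 8 cannot be set against a share of all genes. The difference was not tested, and sex and animal cannot be told apart in it. Log2 ratios of Glut5 KO over wildtype were −0.85 in female and 0.74 in male monocytes for the haptoglobin gene Hp, −1.06 and 0.67 for the hypoxia gene Bnip3, and −0.59 and 0.71 for Mif. They were −0.60 and 1.18 for Traf1, −0.98 and 1.09 for the phospholipid carrier Pltp, −0.65 and 0.84 for the thioredoxin reductase Txnrd1, and −0.70 and 1.28 for the prostaglandin synthase Ptgs2. Ccl7 ran the other way, at 1.63 in female and −0.68 in male monocytes. Ptgs2 belongs to a set that the selection rule scored, so its values are a description of the members as cut.

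Between groups of the gate, Tnf stood at 1.76 in the monocytes and −0.73 in the Fcrl5/Cd300e macrophages, and Pdgfa at −0.65 in the monocytes and 0.70 in the Pf4/Spp1 macrophages. They came from a like screen of the listed and named genes outside the rule, not of all genes. These differences were not tested either.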

How the results depend on the processing

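No paired analysis was possible because each genotype has 1 library and the labels carry no replicate numbers. Leaving out S100a8/S100a9 cells or cells under 2000 UMIs, and the other class II limits, were chosen after seeing the data. The log2 ratio of the monocyte share was −0.48 among gated cells and −0.20 among filtered cells. With z within each library it was −0.22 and 0.060, and with a score lead of 0.25 −0.65 and −0.37. It was −0.70 and −0.53 with the gate at 200, and −0.82 and −0.50 in male cells. Thinned to 2000 UMIs it was −0.16 among gated cells. Values of −0.89 and −0.61 came from leaving cells under 2000 UMIs out of the monocytes alone. Such cells stayed in the totals, and Glut5 KO had more of them among its monocytes, so these 2 values do not compare like shares. The ratio of the class II-low share, −1.28, was −1.82 with the gate at 200. Genes at least 1.5-fold higher and lower, 158 and 132, were 588 and 512 at a minimum of 20 UMIs and 36 and 19 at 500. The type I median, 0.43, was 0.32 thinned, 0.20 with the gate at 200, −0.066 in male and 0.64 in female cells. The interferon-gamma median, 0.23, was 0.049 in male and 0.66 in female cells, and the classical monocyte median was −0.22 in female cells. The chemokine median was −0.016 with the gate at 200 and the receptor median 0.015 in male cells. In male cells Ifit3b stood at −0.46, Ifit3 at −0.34, Rsad2 at −0.20 and Clec4e at 0.21. Genes at least 2-fold above and below the other 3 groups, 45 and 10, were 74 and 16 with the score lead, 29 and 4 thinned, 28 and 4 with the gate at 200, 16 and 3 in male cells, 21 and 6 at 500 UMIs, and the first 22 in female cells. The cause of these differences was not tested. Of gene results under the alternatives, 1361 were counted as within the counting interval of the main value, 266 as beyond it and 4 as turned. Turning was counted only for genes at least 1.5-fold apart in the main result, so smaller ratios that changed sign are not among the 4. Both class I and class II medians stayed between the medians of their members' lower and upper interval ends under the alternatives run. Those limits are of single genes and are not a counting interval of the list median.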

Other observations

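Some genes outside the naming rule had larger ratios and were chosen after their values were seen. Tnfaip6, a hyaluronan-binding protein of inflamed tissue, had 3 UMIs in 3 Glut5 KO monocytes and 103 UMIs in 51 wildtype monocytes. Sash1 had 13 UMIs in Glut5 KO and 187 in wildtype, a log2 ratio of −3.44, and the small GTPase gene Rnd3 had 100 UMIs in Glut5 KO and 20 in wildtype, a ratio of 2.65. Immunoglobulin RNA was uneven among cells. Of 2137 Igkv1-110 UMIs in Glut5 KO monocytes 1984 were in 1 cell, and wildtype monocytes had 0.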
